A study of Homo sapiens with 18 samples.

Results

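The A366 response of MP41 cells was measured by comparing 3 libraries of MP41 cells treated with A366 with 3 libraries of MP41 cells treated with DMSO, the vehicle, which makes 6 of the 18 RNA-seq libraries of the series. MP41 is an established uveal melanoma line, and A366 and UNC0642 are small-molecule inhibitors of the histone methyltransferase EHMT2. Cells were exposed to 1 µM of inhibitor or to DMSO for 48 h. The series also holds 3 MP41 libraries with UNC0642 and 9 libraries of a second uveal melanoma line, Mel92.1, under the same 3 treatments. The series asked which genes changed when EHMT2 was inhibited, in connection with recognition of tumor cells by natural killer (NK) cells.

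The 3 A366 libraries were taken as the dataset published with the study places them, and their labels differ from that placement. Replicate 1 was labelled MP41 A366, whereas replicates 2 and 3 here were labelled Mel92.1 A366 replicate 2 and Mel92.1 A366 replicate 3. Over 33 genes with at least 20 CPM (counts scaled to the size of each library) in MP41 and at most 0.05 CPM in Mel92.1 with DMSO, these 2 libraries reached 110% and 112% of the summed MP41 DMSO level. Over 27 genes of Mel92.1 chosen the same way, they reached 0.0384% and 0.0233% of the Mel92.1 DMSO level. The expression therefore went against both labels, and every direction below rests on the placement. Counts are also given with the library labelled MP41 A366 alone. A single line was used for each comparison. The deposited design text calls the replicates biological without saying whether they were separate cultures, so p-values measure only the spread between these libraries.

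EHMT2, also called G9a, forms a complex with the related enzyme EHMT1 (GLP) and places mono- and dimethylation on lysine 9 of histone H3, a mark of silent chromatin. Inhibitors that occupy its substrate pocket lower this mark without lowering the amount of the enzyme. In tumor cells the mark is known for holding down some immune and differentiation genes, and several of the proteins that write, read or erase it act together at zinc finger genes and repeats.

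The libraries held 39230075 to 41585678 counts with DMSO and 46220015 to 54800817 counts with A366. Melanocyte markers were high in all 6: the pigment protein gene PMEL ranged from 4402 to 4533 CPM with DMSO and from 5433 to 6682 CPM with A366, and the lineage factor gene SOX10 from 566 to 626 CPM and from 698 to 760 CPM, scaled over all 18 libraries. On that scale TYR and MLANA were also higher in every A366 library. MITF was lower (604 to 630 CPM with DMSO, 414 to 522 CPM with A366). So were TYRP1 (6680 to 6826 CPM, 5380 to 5954 CPM) and DCT (327 to 330 CPM, 222 to 313 CPM). Of the marker lists of other cell types, the endothelial list summed to 42.7 to 49.7 CPM with DMSO and 36.6 to 42.9 CPM with A366, the fibroblast list to 31.8 to 34.5 CPM and 26.6 to 27.2 CPM, and the leukocyte, epithelial and red cell precursor lists to at most 2.65 CPM in any of these libraries. The A366 libraries stood apart from the other 6 MP41 libraries in 3 traits that they shared with the 9 Mel92.1 libraries. Ribosomal RNA took 3.31% to 5.10% of counts with DMSO and 3.55% to 5.14% with UNC0642, against 5.93% to 10.96% with A366 and 6.503% to 32.8% in Mel92.1. The antisense RNA CERS6-AS1 had no count in the 6 DMSO and UNC0642 libraries and 4.03 to 25.2 CPM in the other 12, and it was the 1 symbol with no count in those 6 and over 1 CPM in each of the 12. The albumin gene ALB lay between 2.16 and 6.76 CPM in those 6 libraries and between 0.258 and 0.294 CPM with A366, and in Mel92.1 it did not exceed 0.122 CPM. The marker list for hepatocytes, which holds ALB, summed to 5.91 to 7.95 CPM with DMSO and 2.80 to 3.62 CPM with A366. The labels give no date or batch, so the A366 treatment and whatever separates these libraries cannot be told apart.

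A366 was accompanied by broad changes of moderate size. Of 14956 genes tested with edgeR's quasi-likelihood test, 6884 passed a Benjamini-Hochberg adjusted p of 0.05 (46.0%), of which 3362 were higher (22.5%) and 3522 lower (23.5%) with A366. Among genes past the threshold, 320 were at least 2-fold higher and 227 at least 2-fold lower, and the median size of the change was 0.45 on the log2 scale. The 3 A366 libraries lay wholly above or below the 3 DMSO libraries for 8686 genes (58.1%). With the library labelled MP41 A366 alone, 5679 of 15890 genes passed (35.7%), and 5433 of the 6884 genes passed in the same direction. In that fit the lone library was assumed to vary like the other groups.

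The changes followed transcript length and GC content. With genes in 10 equal bins by length, the bin of the shortest transcripts had a median length of 1082 bases, and in it the median log2 fold change was 0.38, and 43.4% of genes were called higher and 3.04% lower. In the bin of the longest, with a median of 9501 bases, the median was -0.39, and 4.35% were called higher and 58.2% lower. By GC content the median rose from -0.31 in the lowest bin (37.0% GC at the median) to 0.36 in the highest (64.1% GC). Both trends were seen with the other property held within a narrower range: among genes of middling GC content (3 classes of equal size for each property) the median went from 0.21 for short to -0.20 for long transcripts, and among genes of middling length from -0.21 for low to 0.21 for high GC content.

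The trend was present in each A366 library and differed in size between them. The longest bin minus the shortest bin, as the difference of median log2 CPM from the DMSO mean, was -0.90 in replicate 1, -0.38 in replicate 2 and -1.06 in replicate 3. The same measure lay between -0.08 and 0.06 in the DMSO libraries and between -0.16 and 0.00 in the UNC0642 libraries, so the A366 libraries did not overlap either group. For GC content, the highest minus the lowest bin was 0.67, 0.38 and 0.95 with A366 and between -0.03 and 0.02 with DMSO. The mean difference between A366 and DMSO was -0.78 for length and 0.67 for GC content, each with a 2-sided exact permutation p of 0.1, the smallest that 3 against 3 libraries can give. The ribosomal RNA share of the A366 libraries, 5.93%, 8.06% and 10.96%, was not in the order of either trend, and its part in the trends was not tested. The A366 libraries placed in Mel92.1 had length differences between -0.25 and 0.25 from the Mel92.1 DMSO mean, whose own libraries ranged from -0.26 to 0.41.

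**Figure D1:**
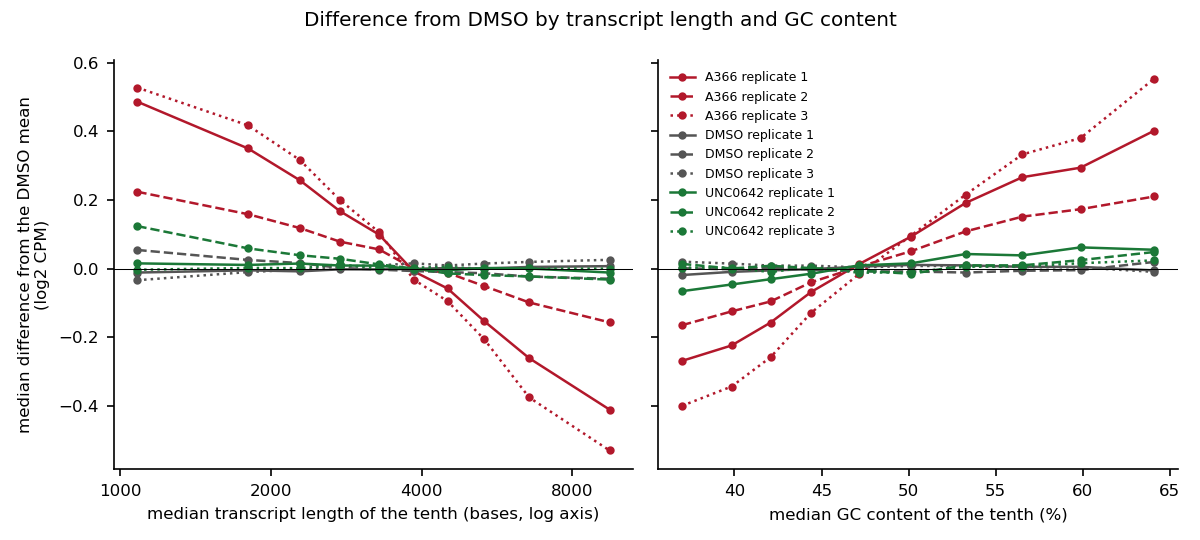
Median difference from the DMSO mean (log2 CPM) in each of 10 equal bins of genes by transcript length (left, log axis) and GC content (right), with 1 line for each of the 9 MP41 libraries. The A366 lines (red) run from short and GC-rich genes above 0 to long and GC-poor genes below 0, least steeply in replicate 2, while the DMSO (grey) and UNC0642 (green) lines stay close to 0.

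Because of these trends results are also given with an offset that removes, library by library, a smooth trend with GC content and length. A second value that follows a log2 fold change, after a semicolon or in brackets, is the value with the offset. With it, 5133 of 14956 genes passed (34.3%), 2649 higher (17.7%) and 2484 lower (16.6%). Of the 6884 genes, 3647 passed in the same direction with the offset and 106 in the opposite one, and 1380 genes passed that had not before. The 3 A366 libraries differed in the size of the change as well. Of the 6884 genes, replicate 2 had the smallest change for 5970 and replicate 3 the largest for 5482. The median change in the called direction was 0.49, 0.28 and 0.60 on the log2 scale in replicates 1, 2 and 3. With the offset and without replicate 1, 3186 genes passed, without replicate 2, 5695, and without replicate 3, 3540.

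The 8 genes that the study singles out as raised by EHMT2 inhibition were all higher with A366, with a median log2 fold change of 1.61 against 0.02 over all genes tested. The study chose them with these libraries, so their direction is not independent evidence. AZGP1, which encodes zinc-alpha-2-glycoprotein, a secreted protein with an MHC class I-like fold, had 3.18, 3.26 and 2.70 CPM with DMSO and 9.37, 8.38 and 10.7 CPM with A366. The A366 values lay close together and about 3.11-fold above DMSO (log2 fold change 1.64 ± 0.14, SE; adjusted p = 2.39e-05; 1.36 with the offset). BANCR, a long noncoding RNA of melanoma cells, went from 8.42, 10.7 and 7.62 CPM to 34.2, 27.2 and 32.3 CPM (1.81 ± 0.13; 1.63). NOX5, a calcium-activated NADPH oxidase, went from 7.78, 8.02 and 9.96 CPM to 21.6, 22.3 and 20.2 CPM (1.31 ± 0.11; 1.53). The A366 values of AZGP1 were in the order that the length trend gives short transcripts (replicate 3 highest, replicate 2 lowest). Those of NOX5, taken as 8592 bases, were in the order it gives long ones (replicate 2 highest, replicate 3 lowest). Those of BANCR were in neither order.

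LINC00426 (0.854, 1.30 and 1.16 CPM with DMSO against 3.97, 3.97 and 3.59 CPM with A366), the keratin gene KRT23 (0.451, 0.535 and 0.828 CPM against 2.00, 1.77 and 1.74 CPM) and SLAMF7, a receptor of NK and plasma cells (0.972, 0.815 and 0.710 CPM against 2.72, 2.71 and 2.31 CPM), rose by 1.80, 1.60 and 1.63 on the log2 scale (1.59, 1.35 and 1.70 with the offset) at levels of a few CPM or less. BST2, the antiviral protein tetherin, went from 2.25, 1.88 and 1.35 CPM to 3.21, 2.92 and 4.77 CPM (0.99, adjusted p = 0.00851), and its call was lost with the offset (0.53, adjusted p = 0.0878). SERPINA1, which encodes alpha-1-antitrypsin, went from 3.49, 3.62 and 4.07 CPM to 5.28, 5.68 and 6.13 CPM (0.61, adjusted p = 0.0301). Its call was lost with the offset (0.51, adjusted p = 0.0688) and in 4 of 9 fits that left out 1 library, down to 0.55 without A366 replicate 3 (adjusted p = 0.0818), with the highest adjusted p of 0.0895 without DMSO replicate 1. With the library labelled MP41 A366 alone, BST2 and SERPINA1 did not pass, and the other 6 did. In the 250 bases before their RefSeq start, AZGP1 (chr7:99976032-99976281, minus strand, GRCh38.p14) held 1 CpG dinucleotide, NOX5 (chr15:69014445-69014694, plus strand) held none, BST2 held 2, LINC00426 held 4 and the 2 listed starts of SERPINA1 held 6 and 11, against a median of 11 over 35116 promoters. Of all promoters, 14.7% held as few as AZGP1 and 51.5% as few as the second start of SERPINA1. No promoter count is given for BANCR, KRT23 and SLAMF7.

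EHMT2 itself, whose protein is the target of A366, had 105, 107 and 111 CPM with DMSO and 124, 127 and 127 CPM with A366. This difference of 0.23 ± 0.06 on the log2 scale passed (adjusted p = 0.00936) but not with the offset (0.11, adjusted p = 0.142), and an inhibitor of the enzyme need not change its RNA. EHMT1 had 43.4, 45.1 and 42.4 CPM with DMSO and 38.5, 42.9 and 38.7 CPM with A366, and did not pass (adjusted p = 0.207). Of 35 tested genes for the EHMT2 complex and other writers, readers and erasers of H3K9 methylation, 4 rose, 20 fell and 11 did not pass, with a median of -0.21, and 4 rose and 13 fell with the offset (median -0.13). Their median transcript length was 5408 bases against 3568 over all genes tested. Of the list 68.6% were called, against 46.0% of all genes. KDM3A, an H3K9 demethylase, fell from 167, 163 and 159 CPM to 91.7, 111 and 85.4 CPM (-0.77; -0.34 with the offset). The related JMJD1C (-0.72; -0.26) and ATF7IP, a partner of the H3K9 methyltransferase SETDB1 (-0.66; -0.18), fell as well, and MPHOSPH8, the H3K9me3-binding subunit of the HUSH complex, rose (0.37; 0.53 with the offset).

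**Figure D2:**
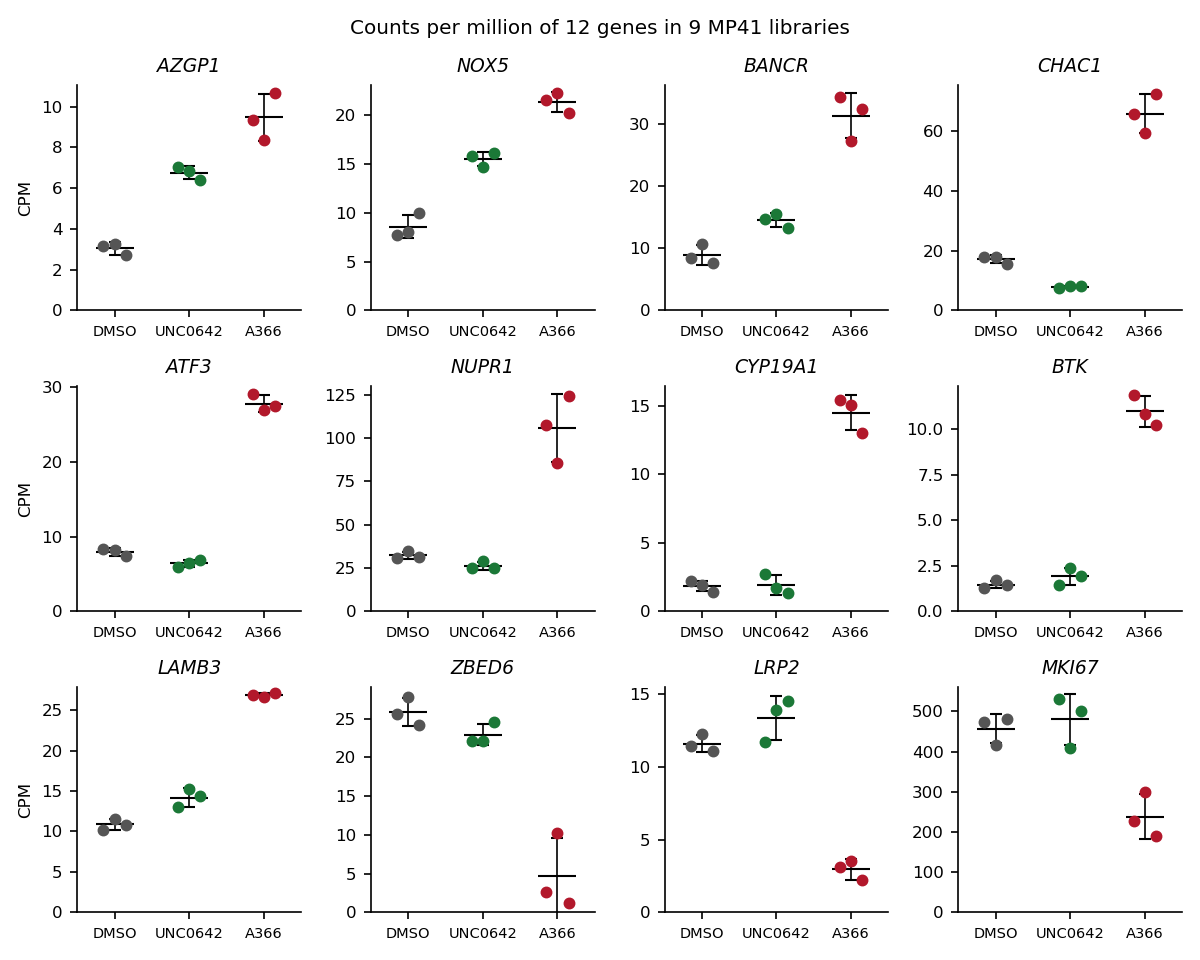
CPM of 12 genes in the 3 DMSO, 3 UNC0642 and 3 A366 libraries of MP41. Points are libraries in replicate order, the horizontal line is the mean and the bars are 1 SD (cut at 0). The A366 points of AZGP1, NOX5, CHAC1, ATF3, CYP19A1, BTK and LAMB3 lie close together and apart from DMSO. Those of ZBED6 and MKI67 spread, with replicate 2 nearest to DMSO.

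The TGF-β and NK ligand genes that the study follows downstream of AZGP1 did not move together. TGFB1, which encodes the cytokine TGF-β1, had 46.3, 42.2 and 41.0 CPM with DMSO and 48.7, 47.4 and 57.6 CPM with A366 (0.25, adjusted p = 0.0469). The call was lost with the offset (-0.02, adjusted p = 0.854), without DMSO replicate 3 (0.21, adjusted p = 0.153) and in 4 other fits that left out 1 library, among them that without A366 replicate 3 (0.15, adjusted p = 0.215). MICB, a ligand of the activating NK receptor NKG2D, had 33.8, 31.6 and 36.3 CPM with DMSO and 29.99, 32.0 and 30.4 CPM with A366, groups that overlapped (-0.14, adjusted p = 0.161), and was lower with the offset (-0.30, adjusted p = 0.00892). ULBP3, another NKG2D ligand, had no count in any of the 6 libraries. MICA, a relative of MICB, had 12.8, 13.2 and 14.2 CPM with DMSO and 17.1, 14.9 and 17.1 CPM with A366 (0.29, adjusted p = 0.0299; 0.03 and adjusted p = 0.836 with the offset), and passed in 5 of 9 fits that left out 1 library. Its highest adjusted p in those fits was 0.114, without A366 replicate 1. Of 20 tested NK receptor ligand genes, 5 rose and 2 fell (35.0% called, against 46.0% of all genes), and with the offset 2 rose and 5 fell. NCR3LG1, which encodes the NKp30 ligand B7-H6, fell from 30.3, 31.9 and 30.2 CPM to 9.88, 18.1 and 5.69 CPM (-1.46, adjusted p = 0.00157; -1.26 with the offset), in the order of the length trend.

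Of 41 tested TGF-β ligands, receptors, SMADs and targets, 12 rose, 13 fell and 16 did not pass (median -0.14), and 11 rose and 6 fell with the offset (median 0.02). The share called was 61.0%, against 46.0% of all genes. Among targets, ID3, a helix-loop-helix inhibitor, rose from 95.7, 100.4 and 88.7 CPM to 179, 144 and 211 CPM (0.91; 0.47 with the offset), and CYR61, a matricellular protein gene also driven by YAP, rose from 12.8, 15.8 and 16.6 CPM to 25.4, 25.2 and 26.9 CPM (0.78; 0.59 with the offset). Among receptors, TGFBR1 fell from 278, 283 and 281 CPM to 168, 202 and 154 CPM (-0.68; -0.27 with the offset), and the co-receptor TGFBR3 fell by 0.68 on the log2 scale (-0.37 with the offset).

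Genes of MHC class I antigen presentation rose more often than they fell. Of 22 tested genes of MHC class I and antigen processing, 16 rose and 1 fell (77.3% called, against 46.0% of all genes; median 0.30), and with the offset 9 rose and 2 fell (median 0.13). The immunoproteasome subunit gene PSMB9 rose from 3.49, 5.25 and 4.38 CPM to 9.07, 7.14 and 9.62 CPM (0.98; 0.92), and the peptide editor gene TAPBPL from 6.497, 5.73 and 4.52 CPM to 8.98, 8.67 and 9.86 CPM (0.72; 0.45). The chaperone gene CANX fell by 0.37 on the log2 scale (-0.16 with the offset). Of 46 tested interferon response genes, 16 rose, 4 fell and 26 did not pass, so that 43.5% were called, near the 46.0% of all genes (median 0.16), and with the offset 9 rose and 4 fell (median 0.09). Among them IFI6 (1.14; 0.69) and ISG20 (0.85; 0.93) rose, and SAMD9 (-0.84; -0.41) and RNF213 (-0.68; -0.39) fell. Of 12 tested chemokine genes, 4 rose and 2 fell, a share also near that of all genes, and 3 rose and 2 fell with the offset. CXCL8, the neutrophil chemokine, rose from 60.3, 63.9 and 60.5 CPM to 93.0, 94.1 and 88.7 CPM (0.58, adjusted p = 0.000329; 0.57 with the offset).

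Genes of the integrated stress response rose together. In this pathway, stress kinases phosphorylate the initiation factor eIF2, translation of most messages slows, and the transcription factor ATF4 is made and raises genes for amino acid uptake and synthesis and for further stress factors. Of 33 tested genes, 26 rose, 2 fell and 5 did not pass, with a median of 0.58, and with the offset 27 rose and 2 fell, with a median of 0.43. Of the list 84.8% were called, against 46.0% of all genes. Its transcripts were shorter and richer in GC than the average (medians 2499 bases and 54.6% GC, against 3568 bases and 48.4%). The median over the list was 0.60, 0.47 and 0.63 on the log2 scale in A366 replicates 1, 2 and 3, and 29 of the 33 genes had no overlap between A366 and DMSO, against 58.1% of all genes tested. With the library labelled MP41 A366 alone, 27 rose and 1 fell.

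Several of the genes hold in their promoters a short element that ATF4 and its partners are known to bind. The element was searched as TGATGNAA on both strands, its reverse being TTNCATCA, in the 250 bases before each RefSeq start (GRCh38.p14). The listed genes were chosen as members of a pathway in which ATF4 acts. A higher share among them can follow from that choice and is no test of the A366 response. Counted by promoter, the element was found in 6 of 46 promoters of listed genes and in 1104 of 35116 in all. Counted by gene, it was found for 6 of 29 listed genes with a promoter in the table (20.7%) and for 1061 of 27305 genes in all (3.89%). The 5 of these genes that were tested are shown with 30 bases around the element, 5′ to 3′ on the strand of the gene, with the element in capitals, because they are the listed genes in which these letters and the RNA values can be set side by side.
CHAC1: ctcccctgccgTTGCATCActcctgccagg
ATF3: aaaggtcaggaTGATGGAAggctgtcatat
ASNS: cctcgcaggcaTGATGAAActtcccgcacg
CEBPG: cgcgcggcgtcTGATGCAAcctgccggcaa
SLC1A5: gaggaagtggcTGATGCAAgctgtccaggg
The windows lie at chr15:40953251-40953280 (CHAC1, plus strand), chr1:212565205-212565234 (ATF3, plus), chr7:97872458-97872487 (ASNS, minus), chr19:33374060-33374089 (CEBPG, plus) and chr19:46784893-46784922 (SLC1A5, minus). The element begins 209, 191, 68, 42 and 97 bases before the start. Those of CHAC1, ASNS and SLC1A5 overlap an exon of a longer transcript in the GENCODE 29 annotation, and those of ATF3 and CEBPG overlap none.

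CHAC1, an enzyme that degrades glutathione and a sensitive target of ATF4, rose most of the list, from 17.97, 17.8 and 15.6 CPM to 65.6, 59.2 and 72.2 CPM, which is 3.84-fold (1.94 ± 0.09, adjusted p = 4.66e-07; 1.54 with the offset). ATF3, a stress-induced repressor, went from 8.30, 8.23 and 7.36 CPM to 29.01, 26.8 and 27.4 CPM (1.80 ± 0.09; 1.66). NUPR1, a small stress-induced nuclear protein, went from 30.9, 34.9 and 31.3 CPM to 107, 85.6 and 124 CPM (1.71 ± 0.12; 1.81). In all 3 genes the lowest A366 library was over 2 times the highest DMSO library. The A366 values of CHAC1 and NUPR1 were in the order that the length trend gives short transcripts. The offset, however, took NUPR1 as 5491 bases, its longest annotated transcript. The asparagine synthetase gene ASNS went from 61.3, 67.8 and 62.1 CPM to 144, 143 and 151 CPM (1.19; 1.08), CEBPG, a dimer partner of ATF4, from 16.0, 12.9 and 15.5 CPM to 25.4, 25.0 and 24.2 CPM (0.75; 0.90), and the glutamine transporter gene SLC1A5 from 89.3, 79.7 and 80.8 CPM to 120, 115 and 129 CPM (0.54; 0.32). These 3 are given for their promoter element. ATF4 itself, named here after its value was seen, went from 254, 262 and 255 CPM to 390, 360 and 403 CPM (0.58, adjusted p = 0.000116; 0.27 with the offset). The 2 listed genes that fell were the lipoprotein receptor gene VLDLR (115, 115 and 111 CPM to 83.3, 96.5 and 79.9 CPM), for which the sign turned with the offset (-0.39 to 0.05), and the proline synthesis gene ALDH18A1 (69.4, 69.2 and 71.0 CPM to 61.2, 61.2 and 55.2 CPM; -0.24, and -0.28 with the offset), for which the call was lost without DMSO replicate 3 (-0.22, adjusted p = 0.0518).

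The stress genes did not show this rise with UNC0642 in MP41 or with A366 in Mel92.1. The UNC0642 and A366 comparisons share the DMSO libraries. With UNC0642 the list had a median of -0.19, 2 genes fell, and CHAC1 was lower than with DMSO, at 7.46, 8.14 and 8.07 CPM (-1.12, adjusted p = 0.000503). Tested directly at the same dose and time, A366 against UNC0642 differed for 6450 genes (43.1%), and 27 of the 33 stress genes were higher and 1 lower with A366. In Mel92.1 the list had a median of -0.23 with A366. In a fit of all 18 libraries, the A366 change differed between the lines for 2179 of 15799 genes (13.8%), among them 24 stress genes with a higher change in MP41, and 25 with the offset. For CHAC1 the change was 1.94 in MP41 and -1.95 in Mel92.1. The A366 libraries of Mel92.1 in this fit include 2 that were labelled MP41 A366. The split of the libraries given above falls between A366 and DMSO in MP41 only. A difference between the lines in the A366 change therefore cannot be told apart from that split.

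**Figure D3:**
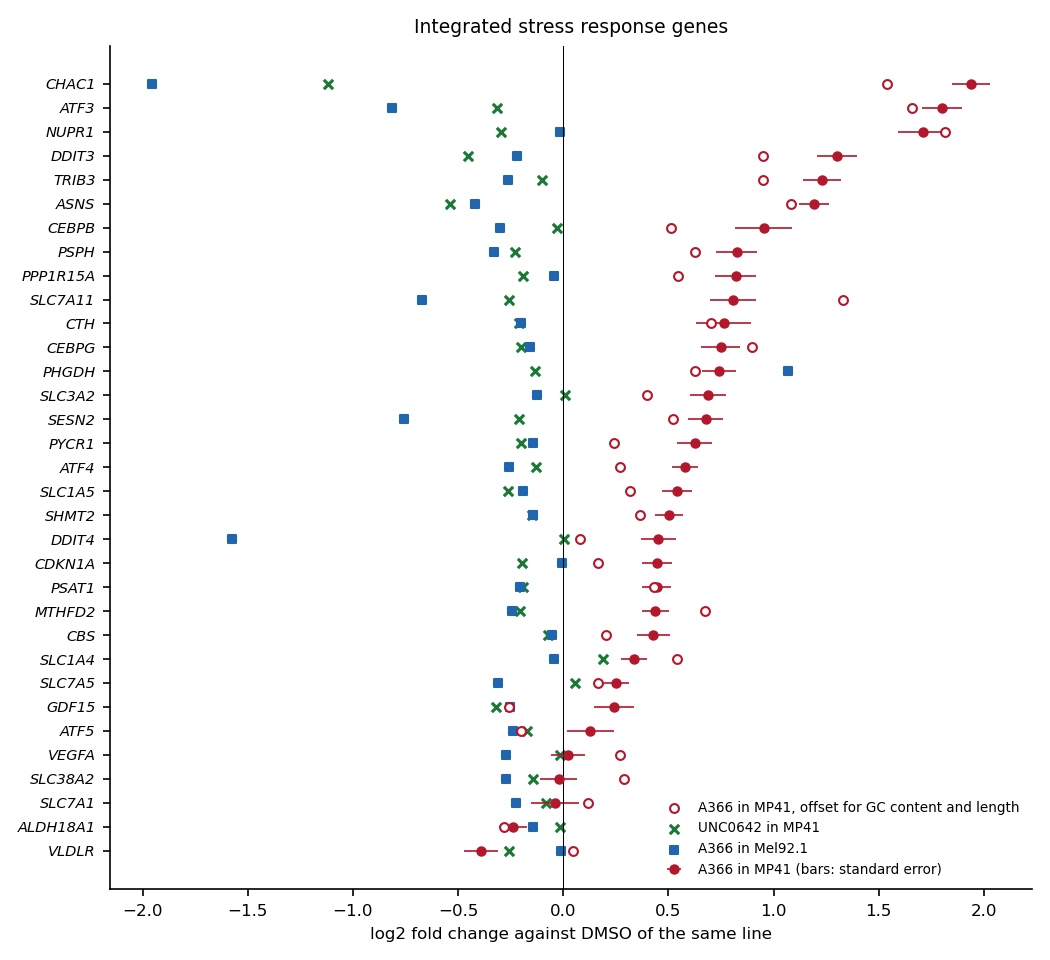
Log2 fold change against DMSO of the same line for 33 integrated stress response genes, ordered by the A366 change in MP41. Filled red points with standard errors are A366 in MP41, open red points the same with the GC and length offset, green crosses UNC0642 in MP41 and blue squares A366 in Mel92.1. The filled red points run from -0.39 (VLDLR) to 1.94 (CHAC1), and for most genes the green and blue marks lie near or below 0.

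Neighbouring stress lists moved in part. The shares called were 65.0% for aminoacyl-tRNA synthetases, 68.0% for ER chaperones and 50.0% for immediate early genes, against 46.0% of all genes. Of 20 aminoacyl-tRNA synthetase genes, 8 rose and 5 fell (median 0.07), and with the offset 7 rose and 2 fell. AARS rose from 147, 151 and 149 CPM to 216, 221 and 218 CPM (0.55; 0.45), and SARS (0.55; 0.26) and CARS (0.52; 0.61) rose as well. Of 25 tested ER chaperone and unfolded protein response genes, 10 rose and 7 fell, and with the offset 10 rose and 2 fell. HERPUD1, which acts in ER-associated degradation, rose from 21.5, 23.7 and 21.4 CPM to 38.9, 36.6 and 37.1 CPM (0.76; 0.70 with the offset), and the chaperone partner gene SDF2L1 by 0.91 (0.35 with the offset). Of 30 immediate early and heat shock genes, 12 rose and 3 fell (median 0.36), and with the offset 8 rose and 6 fell (median 0.13). JUN, an AP-1 subunit gene, went from 8.58, 10.3 and 8.17 CPM to 23.4, 23.5 and 28.6 CPM (1.48 ± 0.12; 1.35). JDP2, a repressor of the same family as ATF3 and JUN, went from 6.54, 8.15 and 6.37 CPM to 23.1, 20.3 and 25.7 CPM (1.72; 1.79 with the offset).

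Among genes past the threshold that reached 10 CPM with A366 or DMSO without overlap between them, the largest rises included CYP19A1 and BTK. Their 3 A366 values were in neither order of the length trend, that of short or that of long transcripts. CYP19A1, which encodes aromatase, the enzyme that makes estrogens, rose from 2.21, 1.94 and 1.44 CPM to 15.4, 15.04 and 13.05 CPM, 7.78-fold (2.96 ± 0.23; 3.17). BTK, a kinase gene best known from B cells, rose from 1.28, 1.71 and 1.44 CPM to 11.9, 10.8 and 10.2 CPM, 7.44-fold (2.89 ± 0.19; 2.84). The lowest A366 library was over 5 times the highest DMSO library in both. LHFPL3-AS1, an antisense RNA, rose from 15.7, 14.0 and 15.3 CPM to 45.4, 51.3 and 44.4 CPM (1.65; 1.45), and LINC00504 from 9.22, 7.11 and 7.79 CPM to 24.1, 27.5 and 19.9 CPM (1.57; 1.85). In LHFPL3-AS1 and LINC00504, taken as 1196 and 4672 bases, replicate 2 was highest and replicate 3 lowest, the order that the trend gives long transcripts. ASPHD1, whose A366 values of 24.7, 20.6 and 28.8 CPM were in the order of short transcripts, rose by 1.65 (1.26 with the offset). CYP19A1, BTK and LHFPL3-AS1 were picked for a large change without overlap between the groups, so their separation is not evidence of its own. CYP19A1 and BTK reached 10 CPM only with A366. LINC00520 rose from 0.237, 0.229 and 0.639 CPM to 9.24, 8.71 and 10.9 CPM (4.69 ± 0.42; 4.54), the largest change among tested genes named LINC that reached 5 CPM.

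Other large changes came with wide spread or with the traits given above. CERS6-AS1, which lies on chromosome 2 antisense to CERS6, had 13.6, 8.91 and 12.8 CPM with A366 and no count with DMSO, at least 162-fold higher when set against 3 counts per DMSO library. It had none with UNC0642 either, and 4.03 CPM or more in every Mel92.1 library on the scale of all 18 libraries. The pseudogene UQCRBP1, which may share reads with its parent gene, went from 1.02, 0.127 and 0.994 CPM to 19.0, 5.20 and 31.1 CPM (4.67 ± 0.94; 4.64). The nuclear RNA MALAT1 went from 936, 1048 and 1013 CPM to 3679, 2002 and 4182 CPM (1.72; 2.25 with the offset), the highest and lowest libraries being those with the steepest and flattest length trends. Among falls, ZBED6, a transcription factor gene inside ZC3H11A, went from 25.6, 27.7 and 24.1 CPM to 2.64, 10.2 and 1.16 CPM (-2.47 ± 0.47; -2.02), and KIAA0754 from 22.03, 22.4 and 23.5 CPM to 2.92, 9.41 and 1.23 CPM (-2.33; -1.99). GPRIN3 (56.6, 55.9 and 53.7 CPM to 15.6, 33.5 and 9.42 CPM), DDI2, NBEAL1, ZNF354C, ZC3HAV1L and the NF-κB subunit gene REL had the same order of the A366 libraries, with log2 fold changes of -1.51, -1.52, -1.48, -1.61, -0.95 and -1.40, and of -1.02, -1.10, -0.99, -1.29, -1.21 and -0.91 with the offset.

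LRP2, which encodes the endocytic receptor megalin, fell from 11.5, 12.3 and 11.1 CPM to 3.10, 3.56 and 2.198 CPM (-1.97 ± 0.16, and -1.57 with the offset). ZNF208 fell from 29.6, 27.8 and 28.3 CPM to 10.6, 12.2 and 9.30 CPM (-1.41, and -1.18 with the offset). LOC441666 fell from 31.1, 25.9 and 28.7 CPM to 11.9, 13.9 and 11.04 CPM (-1.22). No transcript length was found for LOC441666, so the offset made no length or GC correction to it. These 3 genes were picked among those without overlap between the groups, and A366 replicate 2 was the nearest to DMSO in each. RN7SK, the small nuclear RNA that holds back the elongation factor P-TEFb, had 10.98, 19.8 and 11.8 CPM with DMSO and 7.13, 3.36 and 6.32 CPM with A366 (-1.34; -1.66). Its call was lost without DMSO replicate 2 (-1.02, adjusted p = 0.0852).

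Zinc finger genes were lower as a group. Of these genes 56.7% were called, against 46.0% of all genes. Of 476 tested genes named ZNF, 47 rose, 223 fell and 206 did not pass, with a median of -0.41, and with the offset 32 rose and 143 fell, with a median of -0.21. The list median was -0.42, -0.23 and -0.51 in A366 replicates 1, 2 and 3. Many of these proteins are KRAB repressors that bring H3K9 methylation to repeats, and their transcripts were longer and poorer in GC than the average (medians 4014 bases and 42.8% GC, against 3568 bases and 48.4% over all genes). ZNF141 fell from 9.29, 10.9 and 9.16 CPM to 2.70, 4.54 and 2.22 CPM (-1.63; -1.47), whereas ZNF428 rose by 0.94 (0.49 with the offset). Near-identical members of this family can share reads, which makes single values uncertain. Of 33 tested replication-dependent histone genes, 5 rose and 28 did not pass (2 rose and 1 fell with the offset), among them HIST1H2AC (0.88; 0.79). Of 32 tested clustered protocadherin genes, 1 rose and 6 fell (21.9% called, against 46.0% of all genes), and 2 rose and 3 fell with the offset. Of the histone genes 15.2% were called.

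Cell cycle genes fell. Of the mitosis list 79.1% were called and of the replication list 53.8%, against 46.0% of all genes. Of 43 mitosis genes, 1 rose, 33 fell and 9 did not pass (median -0.36), and 1 rose and 33 fell with the offset (median -0.28). The proliferation marker MKI67 fell from 474, 415 and 480 CPM to 228, 298 and 189 CPM (-0.94 ± 0.14; -0.61 with the offset), the spindle gene ASPM from 322, 305 and 323 CPM to 144, 198 and 116 CPM (-1.05; -0.52), and the kinetochore gene CENPF by 0.81 on the log2 scale (-0.32 with the offset). CASC5, another kinetochore gene, fell from 75.1, 76.9 and 69.0 CPM to 26.5, 41.6 and 19.3 CPM (-1.34; -0.85). The 1 gene that rose, the survivin gene BIRC5 (0.23, adjusted p = 0.0404), did not pass with the offset (0.07) and passed in 4 of 9 fits that left out 1 library, with the highest adjusted p of 0.139 without A366 replicate 1. Of 52 genes of DNA replication and of the G1 to S step, 4 rose and 24 fell (median -0.16), and with the offset 32 fell and 20 did not pass (median -0.24). MCM10, a replication fork factor gene, fell from 75.1, 76.6 and 74.9 CPM to 43.2, 53.0 and 40.0 CPM (-0.73; -0.54), the cyclin gene CCNE2 by 0.70 (-0.50 with the offset) and the polymerase gene POLA1 by 0.59 (-0.32). The thymidine kinase gene TK1, at 140, 146 and 139 CPM with DMSO and 187, 157 and 218 CPM with A366, was called higher (0.40) and its sign turned with the offset (-0.03). With UNC0642 both list medians were 0.04. In the fit across lines, 27 of the 43 mitosis genes had a lower A366 change in MP41 than in Mel92.1, against 807 of the 14956 genes tested in MP41. That fit carries the split of the libraries given above.

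Genes of the ribosome and of mitochondrial respiration, most with short transcripts, rose. The shares called were 88.6% for cytosolic ribosomal proteins, 71.1% for oxidative phosphorylation and 62.3% for mitochondrial ribosomal proteins, against 46.0% of all genes. Of 79 tested cytosolic ribosomal protein genes, 70 rose and 9 did not pass (median 0.37), and with the offset 39 rose and 1 fell (median 0.20). RPS29 rose from 153, 161 and 136 CPM to 318, 275 and 247 CPM (0.90; 1.27 with the offset), and RPS28 from 173, 178 and 163 CPM to 330, 264 and 288 CPM (0.78; 0.36 with the offset). Of 76 subunits of oxidative phosphorylation complexes, 53 rose and 1 fell (median 0.38), and 33 rose and 3 fell with the offset (median 0.21). The cytochrome oxidase subunit gene COX8A rose from 66.4, 65.7 and 58.2 CPM to 126, 94.4 and 126 CPM (0.87; 0.44), and the complex I subunit gene NDUFB1 by 0.84 (0.75). The complex I gene NDUFS1, at 187, 190 and 196 CPM with DMSO and 167, 175 and 164 CPM with A366, was called lower (-0.18, adjusted p = 0.0208) and higher with the offset (0.32), and its call was lost in 5 of 9 fits that left out 1 library, up to an adjusted p of 0.0916 without DMSO replicate 3. Of 77 mitochondrial ribosomal protein genes, 45 rose and 3 fell (median 0.27), but 20 rose and 9 fell with the offset (median 0.02), with MRPL41 at 0.92 and 0.29. The table of counts holds no gene of the mitochondrial genome. Ribosomal protein genes have many pseudogene copies that can share reads with them. The offset took RPS29 as 7062 bases, its longest annotated transcript, against a median of 1857 bases over the cytosolic list.

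**Figure D4:**
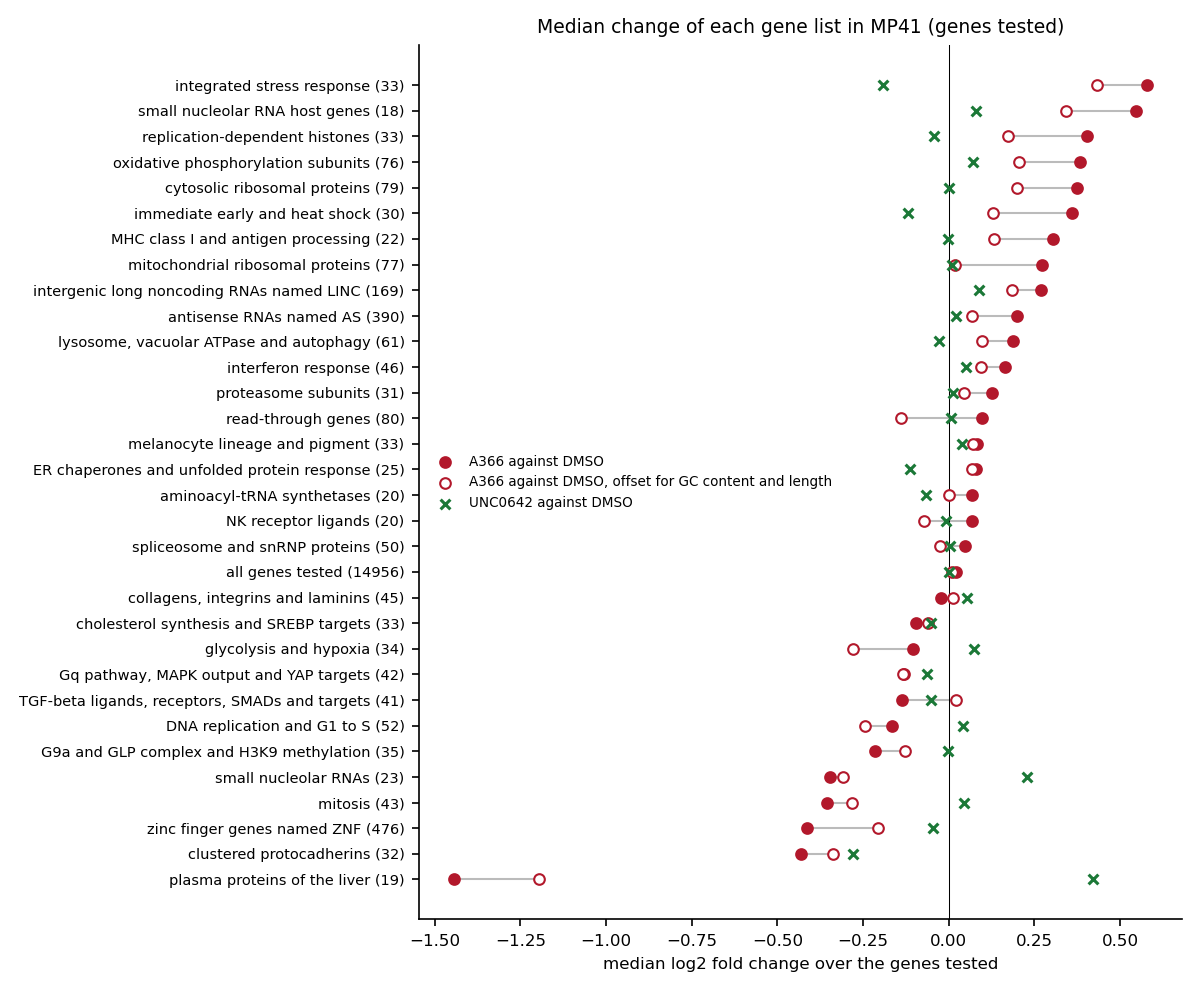
Median log2 fold change of each gene list with at least 18 tested genes, with the number tested in brackets. Filled red points are A366 against DMSO, open red points the same with the GC and length offset, and green crosses UNC0642 against DMSO, which shares the DMSO libraries. The integrated stress response (0.58) lies highest and the plasma proteins of the liver (-1.44) lowest, and the list of mitochondrial ribosomal proteins moves to 0.02 with the offset.

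Metabolic lists were mixed. Of the glycolysis list 52.9% were called, of the cholesterol list 51.5% and of the lysosome list 62.3%. The spliceosome and proteasome lists, at 46.0% and 45.2%, were near the 46.0% of all genes. Of 34 tested glycolysis and hypoxia genes, 4 rose and 14 fell (median -0.11), and with the offset 4 rose and 21 fell (median -0.28). PDK1, the kinase that holds pyruvate back from mitochondria, fell from 83.1, 80.5 and 88.7 CPM to 37.0, 42.0 and 34.1 CPM (-1.16 ± 0.08; -0.60 with the offset), and the mitophagy receptor gene BNIP3 from 146, 162 and 150 CPM to 92.7, 80.0 and 92.4 CPM (-0.79; -0.90). Both genes were lower in every A366 library, without the order of the length trend in BNIP3. Of 33 cholesterol synthesis and SREBP target genes, 6 rose and 11 fell (3 and 10 with the offset), with the desaturase gene SCD going from 669, 643 and 664 CPM to 422, 482 and 399 CPM (-0.60; -0.45) and the mevalonate pathway gene MVD rising by 0.85 (0.50). Of 61 genes of lysosomes, the vacuolar ATPase and autophagy, 30 rose and 8 fell (median 0.19; 22 and 4 with the offset), with the proton pump gene ATP6V0B going from 114, 115 and 108 CPM to 189, 154 and 204 CPM (0.70; 0.45) and the autophagosome protein gene MAP1LC3A rising by 1.00 (0.51). Of 50 spliceosome genes, 10 rose and 13 fell (8 and 14 with the offset), with SF3B1 (-0.58; -0.21) and PRPF8 (-0.52; -0.36) lower, and of 31 proteasome genes 11 rose and 3 fell (8 and 2 with the offset).

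Lineage, signaling and matrix genes also went in both directions. Of the melanocyte list 69.7% were called. The signaling list (Gq, MAPK and YAP), at 47.6%, and the collagen, integrin and laminin list, at 51.1%, were near the 46.0% of all genes. Of 33 melanocyte lineage and pigment genes, 14 rose and 9 fell, in the same numbers with the offset. MITF, the lineage transcription factor gene, fell from 674, 662 and 686 CPM to 497, 566 and 445 CPM (-0.42; -0.16 with the offset), and the melanosome motor gene MYO5A fell by 0.89 (-0.44). The apolipoprotein gene APOE rose from 230, 264 and 220 CPM to 494, 357 and 603 CPM (1.03; 0.44), S100B from 64.1, 69.4 and 60.9 CPM to 120, 98.5 and 126 CPM (0.83; 0.42), and MIA by 0.99 (0.55). S100B was lower with UNC0642, at 35.3, 34.5 and 34.5 CPM. Of 42 tested genes of the Gq pathway, which carries the driver mutations of most uveal melanomas, of MAPK output and of YAP targets, 6 rose and 14 fell (9 and 16 with the offset). The MAPK feedback phosphatase gene DUSP6 rose from 91.0, 84.8 and 92.0 CPM to 125, 129 and 123 CPM (0.49; 0.59), and the YAP target CTGF from 14.0, 12.6 and 15.3 CPM to 21.1, 20.3 and 20.4 CPM (0.56; 0.36). Of 45 collagen, integrin and laminin genes, 8 rose and 15 fell (8 and 12 with the offset). The laminin gene LAMB3 rose from 10.2, 11.6 and 10.8 CPM to 26.8, 26.7 and 27.1 CPM (1.30 ± 0.09; 1.22), and the integrin gene ITGAV fell from 211, 214 and 223 CPM to 111, 153 and 96.8 CPM (-0.85; -0.42).

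Small nucleolar RNA host genes rose, while other noncoding RNAs were mixed. Of the host genes 88.9% were called, against 46.0% of all genes. Of 18 small nucleolar RNA host genes, 15 rose and 1 fell (median 0.55; 10 and 1 with the offset), with SNHG8 going from 28.9, 32.5 and 27.3 CPM to 74.1, 58.7 and 73.6 CPM (1.22; 0.87) and SNHG1 from 40.7, 36.1 and 39.9 CPM to 68.9, 63.1 and 75.4 CPM (0.83; 0.89). Of 169 tested genes named LINC, 35 rose and 5 fell (26 and 4 with the offset), and of 390 antisense RNAs 56 rose and 23 fell (25 and 20 with the offset), shares called of 23.7% and 20.3% that lay under the 46.0% of all genes. Of 8 nuclear long noncoding RNAs, 2 rose and 4 fell, 75.0% called (2 and 2 with the offset), and of 23 small nucleolar RNAs 1 fell and 22 did not pass (4.3% called). RBM5-AS1 fell from 5.83, 5.70 and 5.14 CPM to 1.52, 2.90 and 0.648 CPM (-1.71; -1.81). The extraction notes describe oligo-dT selection and the design text removal of ribosomal RNA with random priming, and which of them was used decides how far RNAs without a poly(A) tail were captured. Of 10 such RNAs, 1 rose and 4 fell (1 and 3 with the offset), a share called of 50.0%, near the 46.0% of all genes. RN7SL2 rose from 124, 168 and 115 CPM to 323, 247 and 275 CPM (1.05; 0.72), and RPPH1 fell by 1.26 on the log2 scale (-1.68 with the offset). TUG1, a long noncoding RNA of nucleus and cytoplasm, fell from 202, 187 and 202 CPM to 111, 145 and 99.8 CPM (-0.73; -0.37).

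Set beside UNC0642 at the same dose and time, with shared DMSO libraries, the A366 differences were far more numerous: 17 of the 14956 genes rose and 19 fell with UNC0642. AZGP1 had 7.05, 6.83 and 6.42 CPM with UNC0642, between DMSO and A366, and the difference between the inhibitors passed (adjusted p = 0.0109). NOX5 likewise had 15.8, 14.7 and 16.1 CPM with UNC0642 (adjusted p = 0.00431 between the inhibitors), and LHFPL3-AS1 29.5, 27.9 and 29.4 CPM. CYP19A1 (2.72, 1.70 and 1.32 CPM), BTK (1.43, 2.40 and 1.94 CPM) and LRP2 (11.7, 13.9 and 14.5 CPM) stayed near their DMSO values with UNC0642. The direct comparison of the inhibitors carries the same split of the libraries as that of A366 with DMSO. Grouped by their labels, the 3 libraries labelled MP41 A366 against DMSO gave 4951 genes, 2922 higher and 2029 lower, but 2 of those libraries expressed Mel92.1 genes.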

How the data were processed

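RNA was taken from MP41 and Mel92.1 cells after 48 h with DMSO, UNC0642 or A366, with 3 libraries a group. The deposited file holds the authors' expected counts per gene symbol for 26475 symbols and 18 libraries, not normalized. The submitters' processing notes name Bowtie2 2.1.0, RSEM 1.2.15 and hg38, while the study's methods describe another pipeline. The extraction notes describe oligo-dT selection and strand-specific libraries, whereas the design text names ribosomal RNA removal with random priming. Expected counts need not be whole (5.85% to 13.4% of values a library were not) and were rounded. The 9 MP41 libraries were scaled by TMM and fitted with edgeR 4.0.16 (quasi-likelihood test, Benjamini-Hochberg adjustment) under R 4.3.3, after removal of low genes by edgeR's filter, and UNC0642 libraries shared in the estimate of spread. CPM values are scaled to library size by TMM. Fold changes are given on the log2 scale with SE.

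Transcript length and GC content came from the longest GENCODE 29 transcript, found for 14464 of 14956 genes tested. Genes without one got no length or GC correction from the offset. The offset subtracts from each library a natural spline (5 degrees of freedom each) on both. In simulated counts for this comparison on 14820 genes, the test recovered 197 of 200 genes changed by 1.5 on the log2 scale, with 7 false calls, and the fit with the offset 198 with 6. With a simulated length and GC trend (14818 genes) there were 2310 false calls without the offset and 12 with it. That trend was built on the same length and GC values that the offset fits, so its removal was fixed in advance. In the data, with the median transcript setting the offset, the length trend over longest transcripts stayed at -0.60. Which transcript of a gene was expressed was not tested.

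The libraries, gene lists and comparison were chosen with earlier results of these data known. Named genes were the study's genes, the 12 largest rises and 12 largest falls past the threshold that reached 10 CPM without overlap between the groups, the 8 largest each way with the offset, and up to 3 each way for each list at 5 CPM or more, of which the text names some. Replicates of a group differed beyond counting error. DESeq2 1.42.0 and limma 3.58.1 served as alternatives. Promoters came from RefSeq.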

Additional observations from a re-analysis of the deposited data

Results flagged for a closer look

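The change with A366 differed between MP41 and Mel92.1 by an interaction test over all 18 libraries for 2179 genes, 1369 with a higher change in MP41 and 810 with a lower one, and for 944 genes with the GC and length offset. Of the integrated stress response genes, 24 had a higher change in MP41 in the same test. For CHAC1 the change in MP41 minus that in Mel92.1 was 3.92 on the log2 scale (edgeR, adjusted p = 2.35e-06). Each line's A366 group rests in part on libraries whose labels name the other line.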

How the results depend on the processing

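The count of 6884 genes was within 1.5 times under other scalings, filters and tests (4669 to 10248) and moved to 2110 (1094 higher, 1016 lower) when a fold of 1.5 was asked as well. Higher genes numbered 5203 with limma voom and quality weights. Lower genes numbered 2029 with libraries as labelled and 2233 with the replicate block and the offset. With single libraries left out the count ranged from 4797 to 7940, that of higher genes from 2330 to 3858 and that of lower genes from 2467 to 4082. In alternatives chosen after seeing the data, the offset without A366 replicate 1 gave 3186 genes (1715 higher, 1471 lower), without replicate 3 gave 3540 (1831 and 1709), and without the 2 libraries labelled Mel92.1 gave 3154 (1627 and 1527). The length trend (-0.77) and the GC trend (0.67) went to -0.016 and 0.064 with the offset, by its construction, to -0.023 and 0.067 with the replicate block added, and the GC trend to 0.25 when the median transcript set the offset. Signs turned with the offset for EHMT1 (0.043), TGFB1 (-0.021), VLDLR (0.047), NDUFS1 (0.32) and TK1 (-0.032), with block and offset for EHMT1 (0.043), TGFB1 (-0.020), VLDLR (0.046), NDUFS1 (0.32) and TK1 (-0.032), and for NDUFS1 with the median transcript (0.00072). With libraries as labelled, which mixes the lines, they turned for EHMT1 (0.80), TGFB1 (-0.094), CANX (0.36), CXCL8 (-0.98), ISG20 (-0.12), ALDH18A1 (0.45), SCD (0.85), S100B (-0.68), CTGF (-0.44), DUSP6 (-0.22) and HIST1H2AC (-0.41). Apart from the offset and the mixed lines, the cause of these moves was not tested. The replicate block gave 6285 genes, but same-numbered libraries did not vary together (correlations from -0.094 to 0.077), so the numbers do not pair them. With 3 libraries a group, fold changes of genes at either end of the length and GC ranges, in which the A366 libraries differ most, are the least certain values here.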

Other observations

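Genes of the liver, named here after their values were seen, stood out among the lists in a way no comparison above covers. Of 19 tested plasma protein genes of the liver, 5 were higher and 9 lower with A366 (4 and 8 with the offset). The share called was 73.7%, against 46.0% of all genes. APOA2, an apolipoprotein of high-density lipoprotein, lay between 0.743 and 3.72 CPM in the 6 DMSO and UNC0642 libraries of MP41 and between 0.0201 and 0.0519 CPM in the 3 A366 libraries, and did not exceed 0.0487 CPM in Mel92.1. The epithelial keratin gene KRT8 lay between 0.326 and 1.14 CPM in those 6 libraries and between 0.0201 and 0.0646 CPM with A366, but reached 0.385 CPM in Mel92.1, above the lowest DMSO library of MP41. In total 3 genes, ALB and APOA2 among them, had in each of the 6 libraries at least 5 times the highest value of the other 12.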
